A study of Homo sapiens with 14 samples.

Results

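Histone genes were taken as every probe whose annotated symbol names a core or linker histone, by the older prefixes (HIST1H to HIST4H, H1F, H2AF, H2BF, H3F) or their current equivalents, with pseudogenes left out. The rule found 104 of the 47322 probes on the array, standing for 87 of 20046 named genes. By symbol, 70 of the 87 were classed as genes of the replication-dependent histone clusters and 17 as variants outside them. Position in the genome was not used for this class. MACROH2A1 and MACROH2A2 entered through their older symbols, and 1 probe shared by H3C11 and H3C6 was kept under both names and assigned to neither gene.

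The arrays held RNA of WM9, an established human melanoma line treated with PLX4720, an inhibitor of the BRAF kinase, at 10 µM. There were 14 one-colour arrays in 7 groups of 2: PLX4720 for 12, 24, 48, 60, 72 or 96 h, and the solvent DMSO for 96 h. The submitters call the arrays of a group biological replicates and say no more about separate cultures, so the p-values measure the spread between these arrays. DMSO was sampled at 96 h alone, so a difference between an earlier PLX4720 time and DMSO holds the hours in culture together with the drug. No genotype, passage or cell count was given for any group, and a change in the make-up of the culture and a change per cell cannot be told apart in such RNA.

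Histones package DNA into nucleosomes, each made of H2A, H2B, H3 and H4, with the linker histone H1 binding between them. The replication-dependent genes mostly lie in clusters on chromosomes 6 and 1 and are transcribed mainly in S phase. Their mRNAs mostly end in a stem-loop in place of a poly(A) tail. Most variant genes outside the clusters give polyadenylated mRNAs through the whole cycle. Variant proteins are placed by dedicated chaperones at promoters, at sites of repair or at centromeres. Neither description of the mRNAs holds for every gene, and which form each probe reads was not tested. The label protocol used a kit whose amplification starts from oligo(dT), so an array of this kind reads polyadenylated transcripts; its part in the dim histone signals was not tested.

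On these arrays the histone genes did not move as a block. H4C3 and the variants H2AX and H2AZ1 were at their highest in PLX4720 at 12 h and fell between 12 h and 24 h, as did H2AZ2 and H3-5. The cluster genes H2BC21, H4C8, H2AC17, H2AC19 and H2AC20 rose over the same interval. Between these times 5 of 40 histone genes fell, where 5% of all genes did, and 5 rose, where 6.04% did. Of 18 replication fork genes 16 fell; the difference between these lists was not tested.

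Detection came first. A signal was called above background when it exceeded the mode of its array by more than the 1% upper tail of the spread below the mode. With at least 2 arrays above background required, 40 of 87 histone genes could be tested (46%), against 63.6% of all named genes. For 39 genes no array was above background, for 8 there was 1 such array, and 29 genes were above it on all 14 arrays. By role, 7 of 17 cluster H2A genes, 8 of 18 cluster H2B genes, 6 of 14 cluster H3 genes, 7 of 15 cluster H4 genes and 2 of 6 cluster linker H1 genes were tested, as were 10 of 17 variants. Detection went with the annotated length of the gene: all 8 cluster genes that span over 1000 bases in RefSeq (2224 to 29682 bases) were tested, against 22 of the 62 shorter ones (35.5%). The long genes were H2BC4, H2BC5, H2BC12, H2BC18, H2BC21, H3C4, H3C6 and H4C15. No value is given here for a gene that was not above background.

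**Figure D1:**
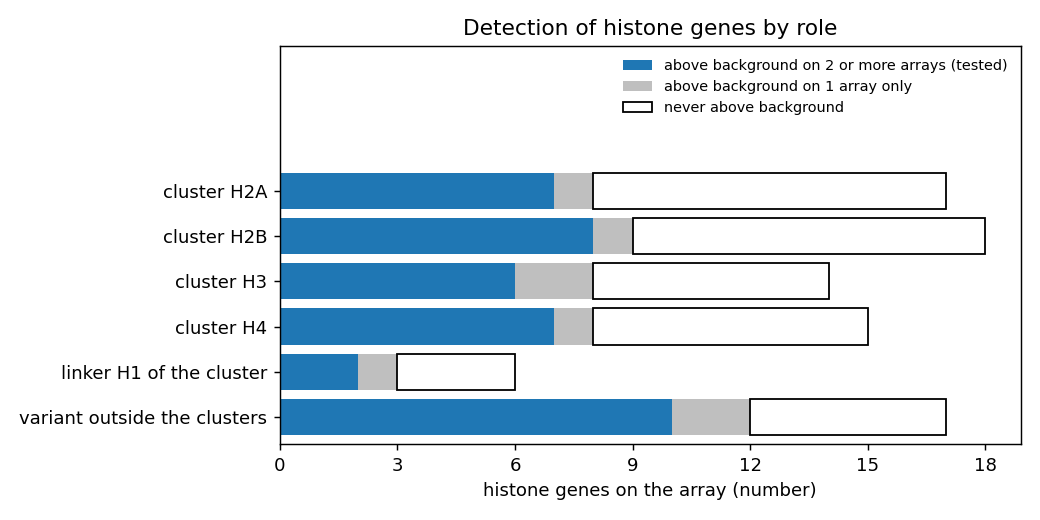
Number of histone genes on the array (x axis) by role (y axis), split into those tested, those above background on 1 array and those never above it. In each of the 5 cluster roles fewer genes were tested than not, while 10 of the 17 variants were tested.

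The sequence before the start of 5 genes is shown: H2AX and H2AZ1 are variants that fell after 12 h, H2BC21 and H4C8 are cluster genes that rose, and H2AC20 faces H2BC21 across shared sequence. H4C3 had no entry. Each line gives the 200 bases before the annotated start, 5′ to 3′ on the gene's own strand, from RefSeq on GRCh38.p14. Of the histone genes, 81 had an entry in this table. Capitals mark matches on either strand to CCAAT (reversed, this reads as ATTGG), to the TATA string TATAAA, to the octamer ATGCAAAT, to the E2F-type string GCGGGAA or to the cell cycle homology string TTTGAA. No printed match overlaps another.
H2AX, chr11:119095466-119095665, minus strand: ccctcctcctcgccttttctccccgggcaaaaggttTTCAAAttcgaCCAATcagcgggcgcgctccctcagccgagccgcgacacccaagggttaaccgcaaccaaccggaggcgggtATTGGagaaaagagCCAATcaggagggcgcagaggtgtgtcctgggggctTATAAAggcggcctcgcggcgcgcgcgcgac
H2AZ1, chr4:99950276-99950475, minus strand: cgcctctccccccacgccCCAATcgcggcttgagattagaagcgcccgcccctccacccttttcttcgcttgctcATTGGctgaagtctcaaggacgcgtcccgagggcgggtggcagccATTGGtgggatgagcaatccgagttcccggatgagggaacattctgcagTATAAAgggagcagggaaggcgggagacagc
H2BC21, chr1:149886683-149886882, minus strand: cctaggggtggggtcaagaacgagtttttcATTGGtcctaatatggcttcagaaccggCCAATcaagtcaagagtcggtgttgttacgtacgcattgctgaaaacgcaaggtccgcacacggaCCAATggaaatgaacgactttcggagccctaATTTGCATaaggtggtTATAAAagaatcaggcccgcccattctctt
H2AC20, chr1:149886718-149886917, plus strand: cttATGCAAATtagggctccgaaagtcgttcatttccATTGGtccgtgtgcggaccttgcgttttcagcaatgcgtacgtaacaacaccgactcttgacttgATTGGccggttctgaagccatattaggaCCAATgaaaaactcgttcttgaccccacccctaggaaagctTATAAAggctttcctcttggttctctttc
H4C8, chr6:26285535-26285734, minus strand: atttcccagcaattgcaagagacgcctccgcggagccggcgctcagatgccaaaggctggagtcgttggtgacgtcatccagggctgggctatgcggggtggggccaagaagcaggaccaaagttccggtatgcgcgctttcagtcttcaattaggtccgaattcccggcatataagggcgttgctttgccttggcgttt

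H2AX and H2AZ1, outside the clusters, each held 3 CCAAT strings and a TATAAA 31 bases before the start. H2AX also held TTTGAA on the reverse strand. The H2BC21 and H2AC20 windows are largely the same DNA read from opposite ends, since the genes start back to back with 235 bases between them. The octamer thus lies 46 bases before H2BC21 and 197 bases before H2AC20. The H4C8 window held none of the 5 strings, which says only that these letters are not there. Across the table CCAAT stood in 28.9% of 27305 windows and in 100% of the 18 cluster H2B windows, but in 23.1% of the 13 cluster H4 windows. The octamer stood in 1.32% of all windows, in 77.8% of cluster H2B windows and in 0 of the 13 cluster H4 windows. The reverse held for GCGGGAA, found in 4.66% of all windows, 69.2% of cluster H4 windows and 0 cluster H2B windows. TATAAA was in 8.92% of all and 58.5% of 65 cluster windows, and TTTGAA in 10.5% and 24.6%.

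Values below are log2 signals after background correction and quantile normalisation, replicate 1 before replicate 2. Differences are log2 fold changes with the standard error (SE) of the limma fit, in which all 14 arrays share 1 estimate of the spread, and p-values are Benjamini-Hochberg adjusted over the 12742 genes tested, with 0.05 as the threshold. The spread was not equal among groups. Over all genes the replicate difference had a standard deviation of 0.559 in DMSO and 0.301 to 0.348 in PLX4720. Among the histone genes these were 0.364 and 0.272 to 0.339. With 1 shared estimate, the SE and p-values against DMSO may thus be too small. Levels of different genes come from different probes and are not compared. The raw median signal lay at 365.8 and 369.8 in DMSO and between 231.9 and 315.8 in PLX4720, so background level and treatment cannot be told apart against DMSO. Scaling each array on its median, in place of quantile normalisation, moved the median of all genes at 96 h against DMSO from 0.07 to -0.27, and the calls over all genes from 2095 higher and 1720 lower to 750 and 2885. Between 24 h and 12 h of PLX4720 the same medians were 0.03 and 0.01. For the labelled cell type, 8 of 9 melanocyte lineage markers were above background on at least 2 arrays and KIT was on none. Of the fibroblast list 3 of 6 were above, with a summed raw signal between 23220 and 26910 in DMSO and between 4911 and 9858 in PLX4720; COL1A1, COL3A1 and PDGFRA were never above. Of the other lists 2 of 5 keratinocyte markers, with DSG3, KRT1 and KRT5 never above, 3 of 5 leukocyte markers, with CD3E and PTPRC never above, and 1 of 4 endothelial markers reached 2 arrays. Their part in the histone values was not tested.

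Among the variants, H2AX, the H2A form that is phosphorylated around DNA breaks, moved most. Its log2 signal was 8.90 and 9.51 on the DMSO arrays and 10.27 and 10.29 at 12 h. It then stood at 8.81 and 8.86 (24 h), 8.34 and 8.50 (48 h), 8.39 and 8.86 (60 h), 8.40 and 8.18 (72 h), and 8.69 and 8.63 (96 h). Both 12 h arrays lay above every other array, and all 10 later arrays lay below both DMSO arrays. H2AX was 2.11-fold higher at 12 h than in DMSO (1.08 ± 0.22 SE, adjusted p = 0.00439), and this held in all 26 alternatives. The alternative that leaves out probes of several genes repeats the main fit, since no such probe was used. Those that leave out an array of another group act only through the shared spread. H2AX fell by 1.44 ± 0.22 on the log2 scale from 12 h to 24 h (adjusted p = 0.000753) and stood 3.07-fold lower at 96 h than at 12 h (-1.62 ± 0.22, adjusted p = 0.000111). Below DMSO it passed the test at 48 h (-0.78, adjusted p = 0.0194) and 72 h (-0.91, adjusted p = 0.00741). The 48 h call was lost without the second DMSO array or either 48 h array, and the 72 h call without the second DMSO or the second 72 h array (highest adjusted p 0.135 and 0.071).

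H2AZ1 encodes the main H2A.Z protein, which flanks active promoters. Its log2 signal was 14.86 and 14.93 in DMSO, 15.51 and 15.52 (12 h), 14.41 and 14.51 (24 h), 14.51 and 14.65 (48 h), 14.43 and 14.38 (60 h), 14.58 and 14.54 (72 h), and 14.12 and 14.49 (96 h). The 12 h arrays were above all others, and every later array was below both DMSO arrays. The rise at 12 h against DMSO was 0.62 ± 0.17 (adjusted p = 0.0227), and it was lost under median scaling (0.25, adjusted p = 0.414) or without either 12 h array. From 12 h to 24 h H2AZ1 fell by 1.05 ± 0.17 (adjusted p = 0.00119) and to 96 h by 1.21 ± 0.17 (adjusted p = 0.000141), both held in 26 of 26 alternatives. Against DMSO the signal was lower at 60 h (-0.49, adjusted p = 0.0481) and 96 h (-0.59, adjusted p = 0.0184). The 60 h call was lost in 16 of 26 alternatives, with each DMSO and each 60 h array left out among them, and the 96 h call in 3, one of which left out the first 96 h array (highest adjusted p 0.285 and 0.191).

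H2AZ2 encodes the other H2A.Z protein. It was at 8.71 and 8.55 in DMSO, 9.47 and 8.96 (12 h) and 8.41 and 8.08 (24 h), and from 8.25 to 9.03 afterwards. It fell from 12 h to 24 h (-0.96 ± 0.21, adjusted p = 0.0104), a call lost under median scaling (adjusted p = 0.0767), without the first 12 h array or without the second 24 h array. By 96 h its arrays, 8.70 and 9.03, overlapped those at 12 h (-0.35, adjusted p = 0.254). The 96 h step for H2AZ2 is thus not shown, unlike that for H2AZ1; whether the genes differ was not tested.

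H3-5, a retrotransposed copy of the H3.3 gene H3-3B, read 12.29 and 12.06 in DMSO, 12.68 and 12.66 at 12 h, and 11.60 to 12.08 on the 10 later arrays. The 12 h arrays were the highest. It fell from 12 h to 24 h (-0.75 ± 0.18, adjusted p = 0.0177) and from 12 h to 96 h (-0.83 ± 0.18, adjusted p = 0.0038). The first call was lost under median scaling (adjusted p = 0.0527) and without either 12 h array or the first 24 h array; the second held in 26 of 26 alternatives. H3-3B itself, which encodes the replication-independent H3.3, read 10.55 and 10.74 in DMSO, 10.75 and 11.10 (12 h), 10.27 and 10.46 (24 h), and 11.21 and 11.61 (96 h). All arrays at 60, 72 and 96 h were above both DMSO arrays, and H3-3B was 1.70-fold higher at 96 h than in DMSO (0.77 ± 0.22, adjusted p = 0.0201). That call was lost under median scaling (0.36, adjusted p = 0.207), without the first DMSO array and without the second 96 h array. The sequences of H3-5 and H3-3B are close enough that which gene a probe reads is uncertain. At 96 h against DMSO H3-5 gave -0.34 (adjusted p = 0.181). H3-3A, the other H3.3 gene, read 15.15 and 15.08 in DMSO and 14.58 and 15.02 at 96 h (-0.31 ± 0.21, adjusted p = 0.29). A different H3-3A probe gave -0.52 with adjusted p = 0.0481 when every probe was tested.

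MACROH2A1, whose protein carries a large macro domain and marks silent chromatin, read 14.22 and 14.20 in DMSO, 14.40 and 14.83 (12 h), 13.98 and 14.14 (24 h) and 13.72 and 14.31 (96 h) on its brightest probe. This probe passed no test; at 12 h against DMSO it gave 0.40 (adjusted p = 0.245), and at 96 h against 12 h -0.60 (adjusted p = 0.0613). Its other probes disagreed. The first of them was lower at 12 h than in DMSO (-1.03 ± 0.21, adjusted p = 0.00528) and higher at 96 h than at 12 h (1.35 ± 0.21, adjusted p = 0.000391), while the second fell from 12 h to 96 h (-0.78 ± 0.22, adjusted p = 0.0173). The annotation used here does not say which transcripts of MACROH2A1 each probe reads, so no direction is given for the gene. MACROH2A2 was above background on 3 arrays, with log2 signals from 6.31 to 7.52 and no test passed. The linker variant H1-10 read 9.77 and 10.25 in DMSO, 10.62 and 10.23 (12 h) and 9.73 and 9.74 (24 h) (24 h against 12 h -0.69 ± 0.24, adjusted p = 0.0867). H2AJ, a mammalian H2A variant known to accumulate in senescent human fibroblasts, read 10.36 and 11.15 in DMSO, 10.38 and 10.81 (12 h), and 11.27 and 11.35 (96 h). Both 96 h arrays were above both DMSO arrays, but the difference did not pass (0.55 ± 0.26, adjusted p = 0.127), and H2AJ passed none of the 9 comparisons.

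**Figure D2:**
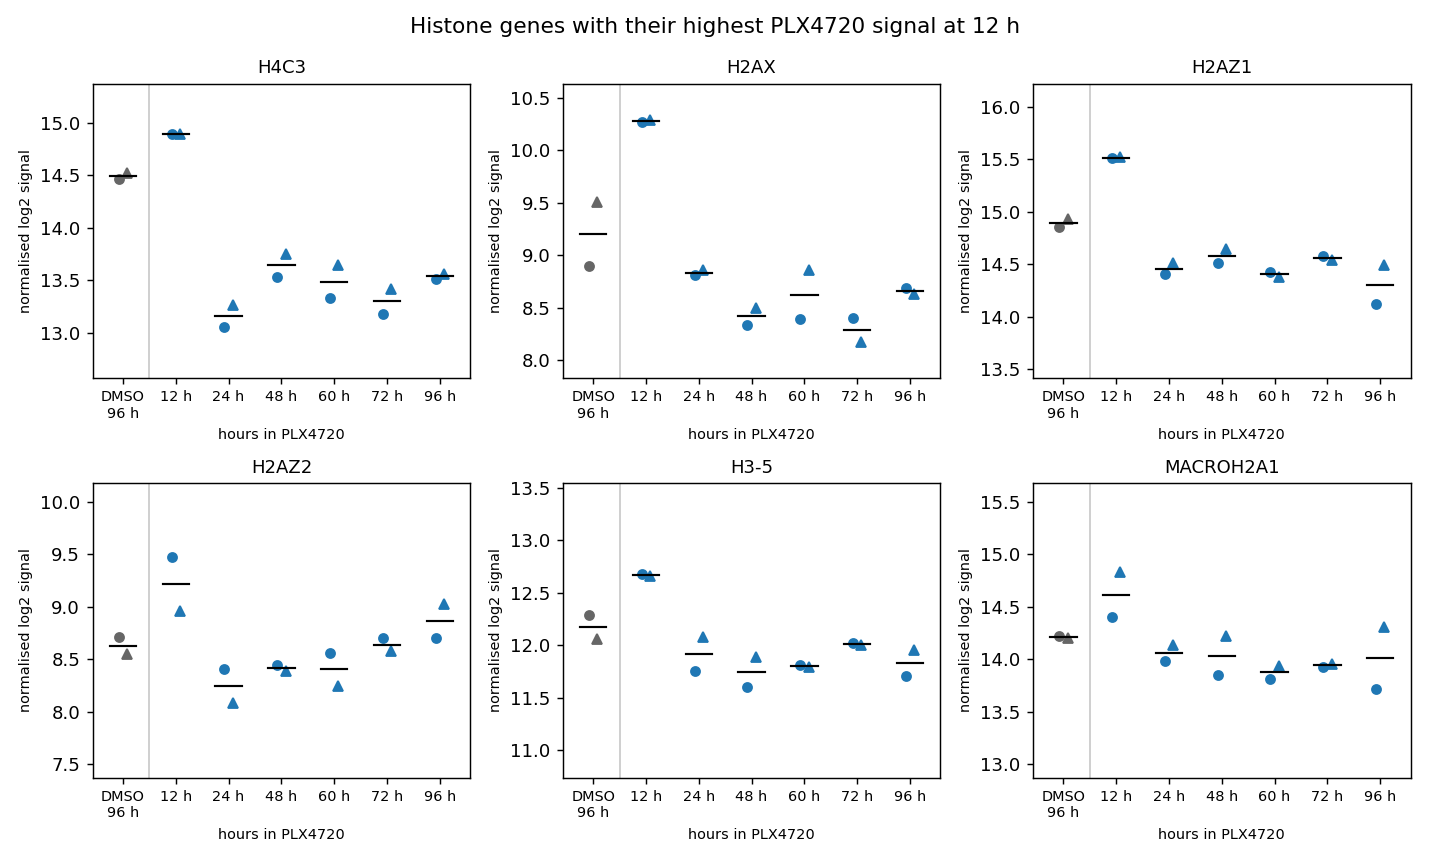
Normalised log2 signal (y axis, each panel spanning the same range of 2.8) of 6 histone genes by group (x axis); circles are replicate 1, triangles replicate 2, lines the mean, grey is DMSO. For H4C3, H2AX, H2AZ1 and H3-5 both 12 h arrays lie above every other array, while MACROH2A1 passed no test and its probes disagree.

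The 7 cluster H4 genes tested encode the same protein from separate transcripts. H4C3 (chromosome 6, 26103933 to 26104337 on GRCh38.p14) read 14.46 and 14.52 in DMSO and 14.89 and 14.89 at 12 h. It then stood at 13.05 and 13.26 (24 h), 13.53 and 13.75 (48 h), 13.33 and 13.64 (60 h), 13.18 and 13.42 (72 h), and 13.51 and 13.56 (96 h). All 10 arrays from 24 h on lay below the DMSO and 12 h arrays. The fall from 12 h to 24 h was 3.32-fold (-1.73 ± 0.18, adjusted p = 3.03e-05), the largest among the 40 histone genes in that comparison. Against DMSO H4C3 was lower at 24 h (-1.33), 48 h (-0.85), 60 h (-1), 72 h (-1.19) and 96 h (-0.96 ± 0.18, adjusted p = 0.00134). These calls held in every alternative, except at 48 h in a fit of those 2 groups alone (adjusted p = 0.0615).

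H4C8 moved the other way. Its log2 signal was 9.78 and 10.32 in DMSO and 9.88 and 10.12 (12 h), then 11.17 and 11.38 (24 h), 10.93 and 11.09 (48 h), 10.83 and 11.05 (60 h), 10.99 and 11.06 (72 h), and 10.61 and 11.04 (96 h). Every array from 24 h on was above all DMSO and 12 h arrays. The rise from 12 h to 24 h was 2.42-fold (1.27 ± 0.22, adjusted p = 0.00185) and held in 26 of 26 alternatives. Against DMSO H4C8 was higher at 24 h (1.22 ± 0.22, adjusted p = 0.0015), 48 h (0.96), 60 h (0.88), 72 h (0.97) and 96 h (0.78, adjusted p = 0.0167). The calls at 24, 48 and 72 h held in every alternative. Those at 60 h and 96 h were lost under median scaling, without the first DMSO array and without the second PLX4720 array of that time (highest adjusted p 0.0801 and 0.209).

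H4C14 and H4C15, near-identical copies on chromosome 1 between which signal may be shared, were higher at 96 h than in DMSO. H4C14 read 8.71 and 9.13 in DMSO and 9.66 and 9.40 at 96 h (0.61 ± 0.20, adjusted p = 0.0341). H4C15 read 7.60 and 8.16 in DMSO and 8.70 and 8.50 at 96 h (0.72 ± 0.23, adjusted p = 0.0301). The groups did not overlap for either, yet each call was lost in 7 of 26 alternatives, among them median scaling, the first DMSO array left out and either 96 h array left out. H4C5, H4C11 and H4C12 passed no test in the 9 comparisons.

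H2BC21, an H2B gene of the chromosome 1 cluster, read 11.44 and 11.80 in DMSO and 10.84 and 11.03 at 12 h. Later values were 12.07 and 12.03 (24 h), 12.09 and 12.17 (48 h), 12.38 and 12.28 (60 h), 12.33 and 12.44 (72 h), and 12.40 and 12.37 (96 h). The 12 h arrays were the lowest of all and the 10 later arrays the highest. H2BC21 was lower than DMSO at 12 h (-0.68 ± 0.17, adjusted p = 0.0149), rose 2.16-fold from 12 h to 24 h (1.11 ± 0.17, adjusted p = 0.000838) and stood 2.72-fold higher at 96 h than at 12 h (1.44 ± 0.17, adjusted p = 3.62e-05). Both changes within PLX4720 held in 26 of 26 alternatives. The 12 h call against DMSO was lost without the second DMSO or the first 12 h array (highest adjusted p 0.195). Later it was above DMSO at 48 h (0.51), 60 h (0.71), 72 h (0.77) and 96 h (0.76 ± 0.17, adjusted p = 0.00478), and all of these were lost under median scaling (at 96 h 0.33, adjusted p = 0.225). The 48 h call was lost in 18 of 26 alternatives, without any 1 of 13 arrays among them, and the 60 h call also without the first 60 h array.

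H2AC20, whose start faces that of H2BC21 across the shared sequence printed above, was chosen for description after its values were seen. It read 10.93 and 11.33 in DMSO, 11.02 and 11.03 (12 h), 11.89 and 11.96 (24 h), and 11.63 and 11.72 (96 h). The 24 h and 96 h arrays were above all DMSO and 12 h arrays. Against DMSO it was higher at 24 h (0.80 ± 0.20, adjusted p = 0.0144), a call lost under median scaling (adjusted p = 0.143), without the first DMSO array and without either 24 h array. From 12 h to 24 h it rose by 0.90 ± 0.20 (adjusted p = 0.0118) beside the 1.11 of H2BC21, and to 96 h by 0.65 ± 0.20 (adjusted p = 0.0291) beside 1.44. Each of these calls of H2AC20 was lost when any 1 of its 4 arrays was left out (highest adjusted p 0.0913 and 0.13). Among the histone genes with an entry, 12 pairs start back to back within 500 bases, 11 of them an H2A and an H2B gene, and in 2 of these pairs both genes were tested. The other was H2BC4 with H2AC6 on chromosome 6, 245 bases apart. From 12 h to 24 h both had the same sign and neither passed (H2BC4 0.50, adjusted p = 0.116, and H2AC6 0.23, adjusted p = 0.503). At 96 h against DMSO they parted. There H2BC4 was lower (8.60 and 8.53 against 7.70 and 8.13, -0.65 ± 0.19, adjusted p = 0.0191) and H2AC6 higher (10.05 and 10.04 against 10.45 and 10.77, 0.56 ± 0.18, adjusted p = 0.0318). The groups did not overlap for either gene. H2BC4's call was lost without the first DMSO or first 96 h array, and H2AC6's under median scaling (0.11, adjusted p = 0.708) and without either DMSO or the second 96 h array.

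H2AC18 and H2AC19 are near-identical H2A genes on chromosome 1, and their probes may share signal. H2AC19 read 10.88 and 11.40 in DMSO, 10.55 and 10.76 (12 h), 11.55 and 11.71 (24 h), and 11.37 and 11.72 (96 h). It rose from 12 h to 24 h (0.98 ± 0.26, adjusted p = 0.0264) and from 12 h to 96 h (0.89 ± 0.26, adjusted p = 0.0191), and against DMSO it passed no test. The 24 h call was lost when any 1 of its 4 arrays was left out, and the 96 h call without the first 12 h or the second 96 h array (highest adjusted p 0.168 and 0.135). H2AC18 read 10.56 and 11.07 (12 h) and 11.58 and 11.84 (24 h), a difference of 0.90 ± 0.37 that did not pass (adjusted p = 0.154).

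H2AC25, on chromosome 1 apart from the main cluster there, passed against DMSO at 96 h and at no earlier time. Its signal was 9.14 and 10.00 in DMSO, 9.44 and 9.86 (12 h), 9.30 and 10.02 (24 h), 10.08 and 10.24 (72 h), and 10.35 and 10.80 (96 h). Both 96 h arrays were above all others. It was 2.00-fold higher at 96 h than in DMSO (1.00 ± 0.31, adjusted p = 0.0274) and rose from 12 h to 96 h (0.93 ± 0.31, adjusted p = 0.0388). The first call was lost under median scaling (0.56, adjusted p = 0.0763), without the first DMSO and without the second 96 h array; the second was lost without any 1 of 8 arrays (the 12, 60, 72 and 96 h groups). H2AC17 was chosen after its values were seen, and in DMSO was above background on 1 of 2 arrays. It rose at 24 h, from 7.25 and 7.54 in DMSO to 8.22 and 8.73 (1.08 ± 0.21, adjusted p = 0.00333). That call was lost without the second 24 h array (adjusted p = 0.0566). Its rise from 12 h to 24 h, from 7.67 and 7.56 (0.86 ± 0.21, adjusted p = 0.0206), was lost without either 12 h array or the second 24 h array (highest adjusted p 0.226).

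**Figure D3:**
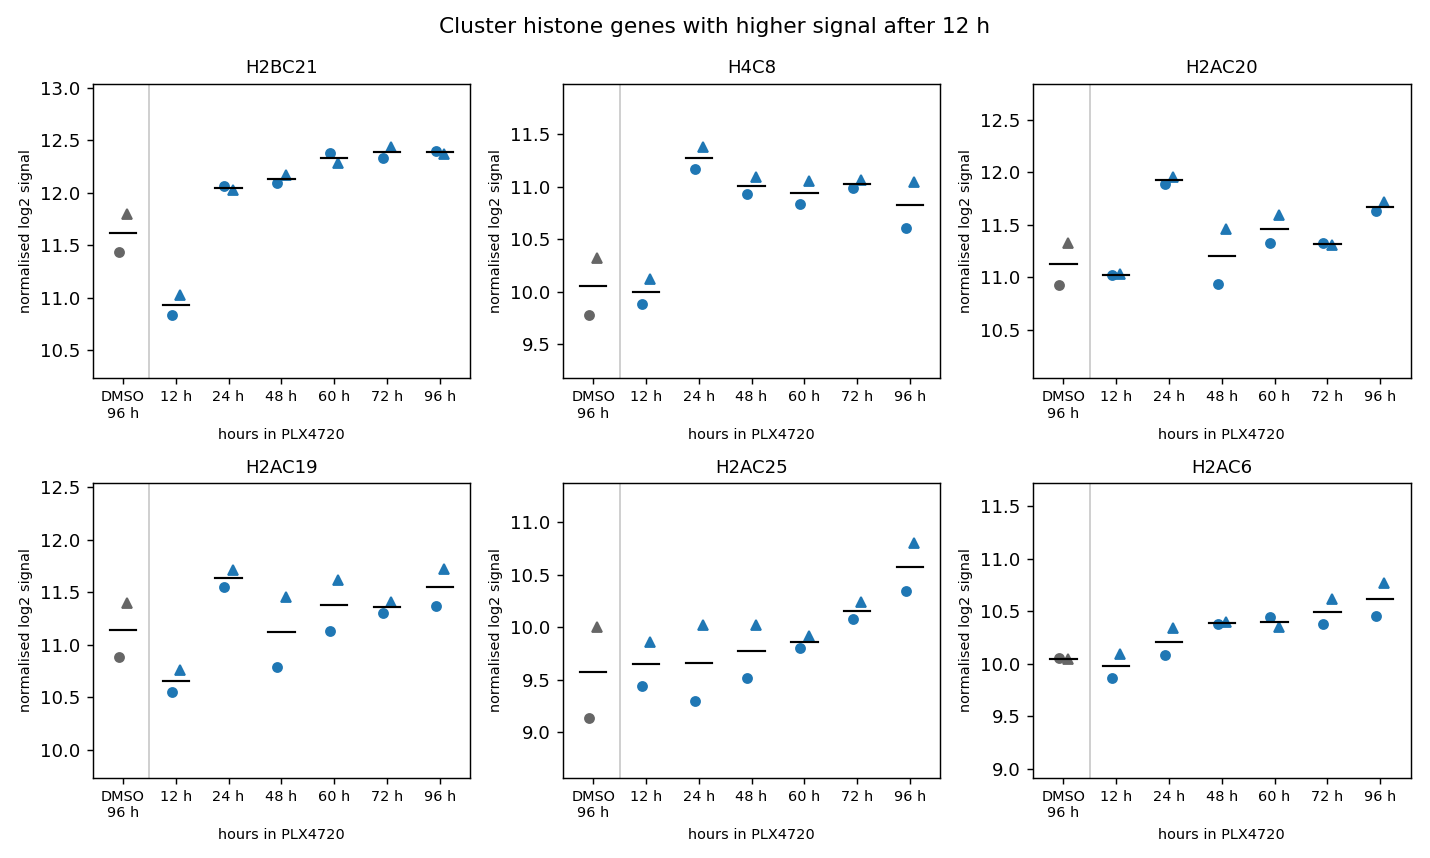
Normalised log2 signal (y axis, same range of 2.8 in each panel) of 6 cluster histone genes by group (x axis); circles are replicate 1, triangles replicate 2, lines the mean, grey is DMSO. H2BC21 and H4C8 stay high from 24 h on, and H2AC25 is highest at 96 h. H2AC19 and H2AC20 have their highest means at 24 h and 96 h, but H2AC19 passed no test against DMSO.

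Of the other H2B genes, H2BC5 read 11.50 and 11.66 in DMSO, 11.98 and 11.96 (12 h), 12.23 and 12.36 (24 h), 12.26 and 12.32 (72 h), and 11.93 and 12.03 (96 h). All PLX4720 arrays were above both DMSO arrays. It was higher than DMSO at 24 h (0.72 ± 0.16, adjusted p = 0.00573) and 72 h (0.71 ± 0.16, adjusted p = 0.00444). Both calls were lost under median scaling (adjusted p = 0.165 and 0.205), and that at 24 h also without the second 24 h array. H2BC12, whose annotated gene spans 8566 bases, stayed between 13.79 and 14.51 on all 14 arrays and passed no test (96 h against DMSO 0.01 ± 0.21, adjusted p = 0.973). H2BC6, named after its values were seen, was lower at 72 h than in DMSO (-0.61, adjusted p = 0.0342), a call lost in 8 of 26 alternatives. At 72 h it was above background on 1 of 2 arrays. H2BC9, H2BC15 and H2BC18 passed no test.

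Among cluster H3 genes only H3C10 passed a test. It read 7.83 and 7.86 in DMSO, 8.28 and 8.47 (12 h), and 8.77 and 8.73 (24 h), and all 12 PLX4720 arrays were above both DMSO arrays. At 24 h it was 1.87-fold higher than DMSO (0.90 ± 0.16, adjusted p = 0.00157), a call that held in 26 of 26 alternatives. The 12 h call (0.53 ± 0.16, adjusted p = 0.0401) was lost in 19. The probe shared by H3C11 and H3C6 was lower at 96 h than in DMSO (-0.73 ± 0.21, adjusted p = 0.0194) and than at 12 h (-0.75 ± 0.21, adjusted p = 0.0175). It was not counted under any gene.

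Of the cluster linker histones, H1-2 read 12.48 and 13.04 in DMSO, 12.15 and 12.21 (12 h), 12.81 and 12.97 (24 h), 11.87 and 11.99 (72 h), and 12.34 and 12.46 (96 h). Both 72 h arrays were below both DMSO arrays. H1-2 was lower at 72 h than in DMSO (-0.83 ± 0.24, adjusted p = 0.0193), which was lost without the second DMSO or either 72 h array (highest adjusted p 0.137). H1-1 passed no test.

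Read as counts, histone calls against DMSO lay near or below the share among all genes. At 12 h against DMSO 3 of 40 were higher, where 9% of all genes were, and 1 was lower, against 8.26%. At 24 h the counts were 5 higher (all genes 11.5%) and 1 lower (9.31%), with 9 higher when the second DMSO array was left out and 2 without the second 24 h array. At 48 h they were 2 higher (13.9%) and 2 lower (11.2%), at 60 h 2 higher (14.1%) and 2 lower (11.1%), and at 72 h 3 higher (15.1%) and 4 lower (12.7%). At 96 h against DMSO 7 were higher (16.4%) and 3 lower (13.5%), with a median of 0.22 beside 0.07 for all genes. Median scaling made the 96 h counts 0 higher and 10 lower. Leaving out the first DMSO array left 1 higher, leaving out the second gave 10, and leaving out the second 96 h array left 1. At 12, 48, 60 and 72 h 1 to 3, 1 to 2, 1 to 5 and 3 to 4 were higher and 0 to 2, 1 to 3, 1 to 3 and 1 to 5 lower as each array was left out in turn, the DMSO arrays and those of the time itself among those that moved the counts. Shares over all genes with an array left out are not given here or below. The comparisons with DMSO share their control arrays. Replicate 2 was above replicate 1 for 25 to 32 of the 40 histone genes in each of the 7 groups, by a median of 0.38 in DMSO and 0.09 to 0.21 in PLX4720, while over all genes the medians were 0.10 and 0 to 0.03.

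Within PLX4720, 5 histone genes were higher at 24 h than at 12 h (all genes 6.04%) and 5 lower (5%), that is 12.5% in each direction. The median was 0.19, against 0.03 for all genes. Leaving out 1 of the 4 arrays compared left 2 or 3 higher and 3 or 4 lower, and leaving out either DMSO array, which enters through the shared spread, gave 8 higher. By role the medians in this step were 0.86 for cluster H2A, 0.29 for cluster H2B, 0.17 for cluster H3, -0.04 for cluster H4 and -0.63 for the variants. Of 10 variants 4 fell and 0 rose, and of 30 cluster genes 5 rose and H4C3 fell. At 96 h against 12 h 6 were higher (15.1%) and 4 lower (14%), with medians of 0 for the histone genes and 0.01 for all genes; without the first 12 h array or the second 96 h array 1 was higher. Between 96 h and 72 h limma called no histone gene, and 0 of 40 had an unadjusted p under 0.05 in either direction; over all genes 0.00785% were called higher and 0.0392% lower. In the F test for any difference among the 6 PLX4720 times, 12 of 40 histone genes passed (30%), against 28.1% of all genes. They were H4C3 (adjusted p = 9.58e-05), H2AX, H2BC21, H2AZ1, H4C8, H3-5, H2AZ2, H2BC4, H3-3B, H2AC20, H2AC17 and H3C10 (adjusted p = 0.0485). The count fell to 5 and 7 without the first and second 12 h array, to 6 without the second 24 h array and to 7 without the second 72 h array.

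The time of the highest PLX4720 mean set the roles apart in description. Of the 30 cluster genes tested, 16 were highest at 24 h (53.3%), where 15.2% of all genes were, and 4 at 12 h (13.3%), against 25.9%. Of the 10 variants 6 were highest at 12 h, MACROH2A1 among them by its brightest probe. Its other probes disagreed, so the place of MACROH2A1 in this count is not shown. All 18 replication fork genes were highest at 12 h. Several of these cluster genes were dim and passed no test, so the order of their means is not shown beyond the spread.

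Position within the genome was looked at because the clusters lie on different chromosomes. The 9 tested cluster genes on chromosome 1 were all above 0 at 96 h against 12 h, with a median of 0.65 and 4 calls higher, where 15.1% of all genes were higher and 14% lower. The 21 on chromosome 6 were divided, 9 above and 12 below 0, with a median of -0.03, 2 higher and 1 lower. At 96 h against DMSO 8 of 9 and 12 of 21 were above 0, and at 12 h against DMSO 4 of 9 and 12 of 21. The 9 include H2AC25, which lies apart from the main cluster. H2BC18 and H3C13 were not above background at 12 h or 96 h, so their signs between these times are not shown. In DMSO H2BC18 was above background on 0 of 2 arrays and H3C13 on 1, so their signs against DMSO are not shown either. The share of all genes above 0 is not given here. Whether the chromosomes differ was not tested, and near-identical copies on chromosome 1 share sequence with each other.

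Genes that work with histones gave the setting. The replication fork list, among them CDC45 of the replicative helicase and RRM2 of ribonucleotide reductase, had 4 of 18 tested genes higher and 0 lower at 12 h against DMSO (median 0.42), 0 higher and 16 lower from 12 h to 24 h (median -1.72), and 15 lower at 96 h against DMSO (median -1.02). Over all genes 9% were higher at 12 h against DMSO, 5% fell from 12 h to 24 h and 13.5% were lower at 96 h against DMSO. RRM2 fell by 3.88 ± 0.37 from 12 h to 24 h (adjusted p = 1.67e-05) and CDC45 fell by 3.6 ± 0.17 (adjusted p = 6.7e-08). On 1 of the 2 arrays at 24 h RRM2 was not above background. The centromeric H3 variant CENPA, which the selection rule does not reach, was higher at 12 h than in DMSO (1.33 ± 0.19, adjusted p = 0.000357). At 24 h it was above background on neither array and at least 13.5-fold lower than at 12 h (adjusted p = 6.7e-08), the bound being set against the lowest signal above background on each 24 h array. Its chaperone HJURP (-3.49) and the licensing factors OIP5 (-3.3, above background on 1 of 2 arrays at 24 h) and MIS18A (-1.08) also fell, making 4 of 4 tested.

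Over all genes 5% fell from 12 h to 24 h and 6.04% rose. Of 26 histone chaperones and deposition factors 5 fell and 0 rose. These were HJURP, the replication-coupled chaperones ASF1B (-3.13 ± 0.24, adjusted p = 3.16e-06, above background on 1 of 2 arrays at 24 h), CHAF1A (-1.06) and CHAF1B (-0.99), and SSRP1 of the FACT complex (-0.88). At 96 h against DMSO ASF1B (-1.99), HJURP (-1.62) and CHAF1A (-1.28, above background on 1 of 2 arrays at 96 h) were lower, 3 of 26, and 0 were higher. Over all genes 13.5% were lower and 16.4% higher, so the lower count is near that share. Of 14 genes for histone mRNA transcription and 3′ end processing none passed from 12 h to 24 h, in either direction. SLBP, which binds the stem-loop of histone mRNAs, gave -0.16 ± 0.17 (adjusted p = 0.648). NPAT, the histone gene coactivator, was above background on 1 of 2 arrays at 24 h and on neither at 12 h, so no difference is given for it. At 96 h against DMSO 2 of the 14, HINFP (0.76 ± 0.20, adjusted p = 0.0133), which activates H4 genes, and ZNF473 (0.56), were higher and CPSF3, the endonuclease that cuts histone pre-mRNA, was lower (-0.58). These counts are near or below the shares over all genes in that comparison. Of 8 cyclin E and E2F genes 3 fell from 12 h to 24 h, E2F2 (-2.27), CDC25A (-1.62) and CDK2 (-1.23), and 0 rose. CHAF1A, CHAF1B, SSRP1, MIS18A and CDK2 were named after their values were seen.

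**Figure D4:**
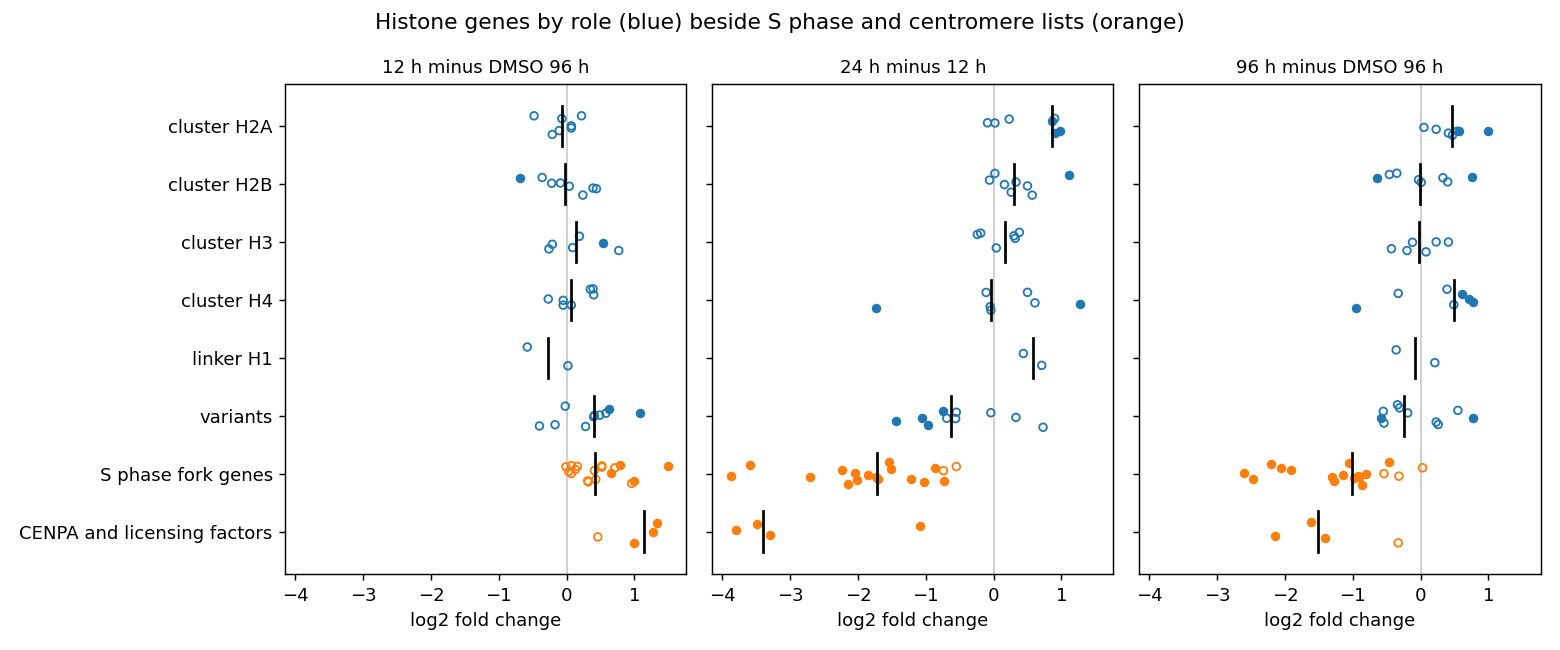
Log2 fold change (x axis) of each tested gene by role or list (y axis) in 3 comparisons; filled points passed the test at 0.05, black bars are medians, blue marks histone genes and orange the replication fork list and CENPA with its licensing factors. In the 24 h against 12 h panel the fork list has a median of -1.72 and the cluster H2A genes 0.86, with H4C3 the lone filled cluster gene below 0.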

How the data were processed

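Signals of 47322 probes on 14 arrays were analysed. The deposited table holds raw linear intensities, 1 for each probe on each array, per the file headers and values; no scanner or summarising software is named in these sources. A second table deposited by the authors holds quantile-normalised log2 values and was used as an alternative. Intensities were corrected with the normexp model of limma 3.58.1 in R 4.3.3 (offset 16), quantile normalised and put on the log2 scale. The planned neqc method needs negative controls or detection p-values, which the tables used here do not hold. Probes were named from the platform annotation with current RefSeq symbols: 30113 had 1 gene, 8 several and 17201 none. The brightest probe above background on at least 2 arrays stood for each gene. Groups were compared with limma (lmFit, eBayes, two-sided, 14 arrays, 7 groups, 7 residual and 5.86 prior degrees of freedom), Benjamini-Hochberg over 12742 genes, threshold 0.05. Precision is limited by 2 arrays per group; arrays give no counts. Per-array values were given for the 8 largest changes past the threshold at 12 h and 96 h against DMSO and at 96 h against 12 h, and for a list of variants and abundant cluster genes. Companion genes were named by size of change. The members and lists were chosen with earlier results of these data known. The fit was tested on simulated data. Alternatives varied offset, background, scaling, filter, probe choice, array weights, groups fitted and each array left out.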

Additional observations from a re-analysis of the deposited data

Results flagged for a closer look

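For 3 histone genes the effect against DMSO had opposite signs, both past the test, at 12 h and at a later time of PLX4720. The change of the effect was taken in limma as the later time against 12 h, in which the shared DMSO arrays cancel; since the genes were picked for opposite signs, its p-values describe that choice and add no support. For H2AX the effect was 1.08 at 12 h and moved by -1.86 ± 0.22 (log2, SE) to 48 h (adjusted p = 4.45e-05) and by -1.99 ± 0.22 to 72 h (adjusted p = 2.06e-05). For H2AZ1 it was 0.62 at 12 h and moved by -1.11 ± 0.17 to 60 h (adjusted p = 0.000336) and by -1.21 ± 0.17 to 96 h (adjusted p = 0.000141). H2BC21 went the other way, from -0.68 at 12 h, by 1.19 ± 0.17 to 48 h (adjusted p = 0.000222), 1.4 ± 0.17 to 60 h (adjusted p = 6.04e-05), 1.45 ± 0.17 to 72 h (adjusted p = 3.77e-05) and 1.44 ± 0.17 to 96 h (adjusted p = 3.62e-05). DMSO was sampled at 96 h alone, so the sign against DMSO at 12 h holds the hours in culture as well. Several of these calls depend on the processing, with no sign reversed in the 26 alternatives. Alternatives that repeat the main fit or leave out an array of another group could not reverse a sign. Nor could a fit of the 2 groups alone, a replicate block, the test of every probe, or a changed filter that keeps the probe. The 12 h call of H2AZ1 was lost under median scaling (0.25, adjusted p = 0.414) and its 60 h call in 16 of 26 alternatives. H2BC21 lost its calls at 48, 60, 72 and 96 h against DMSO under median scaling, and that at 48 h in 18 of 26 alternatives.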

How the results depend on the processing

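Of 26 alternatives none reversed a call of a histone gene. Those that repeat the main fit or leave out an array outside the comparison keep its log2 fold change, so they could not reverse one. The same holds for the fit of the 2 groups alone, the replicate block and the test of every probe. It also holds for a changed filter where the same probe stands for the gene. Counts are given as higher and lower of the 40 tested genes. Shares over all genes are not given beside the counts in this section. The counts are thus not read as results about histone genes. Median scaling gave, for the 6 times in order against DMSO, 1 and 3, 3 and 2, 1 and 7, 0 and 9 (median -0.14), 1 and 6 (median -0.19), and 0 and 10 (median -0.05), 5 and 3 at 24 h against 12 h, and a median of -0.11 at 96 h against 12 h. Array weights gave 1 and 0, 4 and 1, 1 and 1, 0 and 1, 3 and 2, and 1 and 1 at the 6 times against DMSO, and 8 higher at 24 h against 12 h. A fit of the 2 groups alone gave 1 and 0, 3 and 1, 1 and 0, 0 and 1, 1 and 2, and 1 and 1. With no filter (87 genes) 1 was higher at 12 h and 48 h, 3 at 96 h (median 0.01) and 3 at 24 h against 12 h (median -0.04), and the median at 96 h against 12 h was -0.13. Every probe tested gave 2 lower at 12 h and 1 higher at 48 h; no background correction gave 2 lower at 24 h and a median of 0.11 at 24 h against 12 h; the authors' table gave 2 lower at 24 h, 5 higher at 72 h and a median of 0.08 at 24 h against 12 h; a stricter filter gave 5 higher at 72 h. The causes were not tested.

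Replicate numbers were not taken to pair the arrays, since nothing in the labels ties them to a shared batch or day and the correlation of deviations was not over 0.1 in every pair of groups: of 21 it was in 17 (-0.20 to 0.42, median 0.29). With a replicate block the counts against DMSO were 4 and 2, 8 and 2, 2 and 3, 4 and 4, 7 and 4, and 12 and 3, with 9 and 6 at 24 h against 12 h, 10 and 5 at 96 h against 12 h, and 20 in the F test. Calls over all genes under the block are not given here, so whether these counts are particular to histone genes is not shown.

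Leaving out each array in turn gave, at 12, 24, 48, 60, 72 and 96 h against DMSO, 1 to 3, 2 to 9, 1 to 2, 1 to 5, 3 to 4 and 1 to 10 higher, 0 to 2, 1 to 2, 1 to 3, 1 to 3, 1 to 5 and 1 to 4 lower, and medians of -0.02 to 0.29, 0.07 to 0.34, -0.17 to 0.21, -0.13 to 0.22, -0.10 to 0.15 and 0.01 to 0.22. It gave 2 to 8 higher, 3 to 5 lower and medians of 0.09 to 0.27 at 24 h against 12 h, 1 to 7 higher at 96 h against 12 h, medians of 0.03 to 0.24 at 96 h against 72 h, and 5 to 16 in the F test. The 47 histone genes near background on these arrays set no limit on their transcripts.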
